A study of Mus musculus with 12 samples.

Results

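The peaks described here are stretches of open chromatin in mouse blood cells whose centre lies on a copy of 1 of 3 old families of interspersed repeats: MIR, L2 and CR1. They were taken from the master peak-list, a single list of 84243 peaks of 499 bp each, as every peak whose detailed annotation named a repeat of the class SINE/MIR, LINE/L2 or LINE/CR1. This gave 938 peaks, 1.11% of the list and 7.36% of the 12746 peaks that are centred on any named repeat. The rule read only the annotation, so no measured level of accessibility chose the members. The list comes from ATAC-seq, in which a transposase cuts and tags accessible DNA, of 6 cell types sorted from wild-type C57BL/6 mice aged 8 to 12 weeks, with 2 replicate samples each and 12 in all. Hematopoietic stem cells (HSC), megakaryocyte progenitors (MkP), erythroid progenitors (EP), granulocyte/macrophages (GM) and B cells came from bone marrow, and T cells from thymus. The HSC gate was Slamf1-positive and Flk2-negative among cKit+ Lin- Sca1+ cells, the MkP gate took CD41+ Slamf1- cells, and the EP gate CD71+ cells. The GM cells carried both Gr1 and Mac1, the B cells B220 without CD43, and the T cells CD3 without CD25. No group carried a treatment or an engineered allele. The list is pooled over all 12 samples and holds 0 columns of values per sample, so it does not say in which cell type a peak was open, how strongly, or at what sequencing depth. No comparison between cell types could therefore be made, and every comparison below is between sets of peaks.

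MIR elements (mammalian-wide interspersed repeats) are short non-autonomous SINEs derived from a tRNA, and they were copied by the reverse transcriptase of the L2 LINE. Both families, and the CR1-type LINEs such as L3, stopped moving early in mammalian history, so that their copies are short, diverged and fixed in the genome. Copies of such families are known to serve as enhancers, promoters and insulators in many tissues, and blood enhancers in general are known to hold sites for ETS, RUNX, GATA, C/EBP and E-box factors.

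To show what such a peak looks like, the central 200 bases of the member peaks nearest to the start site of a gene from a list of 75 blood genes are printed first, 3 for MIR and 3 for L2. No CR1 peak was assigned to a gene of that list. Sequences are the RefSeq copy of GRCm38 (mm10), plus strand, 5′ to 3′, and capitals mark the motif strings on either strand that are spelled out further on. The MIR peaks shown lie upstream of Csf3r, the receptor of granulocyte colony-stimulating factor (shown chr4:126019020-126019219), of Lmo2, a bridging protein of the stem cell and erythroid TAL1 complex (chr2:103946976-103947175), and of Ikzf1, the lymphoid zinc finger factor Ikaros (chr11:11667629-11667828).
Csf3r, MIR: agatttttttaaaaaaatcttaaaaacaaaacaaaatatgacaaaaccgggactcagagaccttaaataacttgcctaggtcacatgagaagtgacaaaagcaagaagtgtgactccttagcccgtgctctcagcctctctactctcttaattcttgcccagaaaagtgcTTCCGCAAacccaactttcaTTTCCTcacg
Lmo2, MIRb: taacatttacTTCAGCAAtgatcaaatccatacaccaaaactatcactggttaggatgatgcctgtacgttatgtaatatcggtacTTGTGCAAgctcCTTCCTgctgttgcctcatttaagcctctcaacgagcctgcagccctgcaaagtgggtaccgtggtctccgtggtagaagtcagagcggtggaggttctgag
Ikzf1, MIR3: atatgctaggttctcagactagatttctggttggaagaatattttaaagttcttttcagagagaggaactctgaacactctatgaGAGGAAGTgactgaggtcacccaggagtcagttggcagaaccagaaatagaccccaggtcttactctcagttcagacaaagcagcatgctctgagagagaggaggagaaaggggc
The Csf3r peak held a C/EBP string (TTCCGCAA) 171 bases into the printed run, and the Lmo2 peak held a pair of them. The Ikzf1 peak held the longer PU.1 string GAGGAAGT, within which the shorter ETS string lies.

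The L2 peaks shown are near Itgam, which encodes the integrin subunit CD11b that the GM gate used as Mac1 (chr7:128048889-128049088), near Irf8, an interferon regulatory factor of monocyte and dendritic cell development (chr8:120763351-120763550), and near Bcl6, a repressor of germinal centre B cells (chr16:24025578-24025777).
Itgam, L2: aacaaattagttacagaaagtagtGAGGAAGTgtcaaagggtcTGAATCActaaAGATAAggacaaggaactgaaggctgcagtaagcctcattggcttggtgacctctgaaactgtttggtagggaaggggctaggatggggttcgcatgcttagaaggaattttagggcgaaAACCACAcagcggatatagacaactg
Irf8, L2b: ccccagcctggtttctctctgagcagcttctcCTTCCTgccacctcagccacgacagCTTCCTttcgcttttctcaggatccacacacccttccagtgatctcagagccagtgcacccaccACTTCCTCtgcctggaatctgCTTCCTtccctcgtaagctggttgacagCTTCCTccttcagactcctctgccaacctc
Bcl6, L2: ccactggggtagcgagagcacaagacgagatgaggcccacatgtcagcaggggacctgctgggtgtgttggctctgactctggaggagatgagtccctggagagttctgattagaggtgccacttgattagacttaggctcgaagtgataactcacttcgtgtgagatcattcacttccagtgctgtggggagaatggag
In 200 bases the Itgam peak held a PU.1 string, an NF-E2/AP-1 string, a GATA string and a RUNX string. The Irf8 peak held 5 ETS strings on the minus strand, 1 of them inside a PU.1 string. The Bcl6 peak held none of the 11 strings in its central 200 bases and an ETS string farther out.

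The 3 families were unequal in number. MIR made up 463 peaks (0.55% of the list), L2 386 peaks (0.458%) and CR1 89 peaks (0.106%). Within MIR, 160 peaks carried the name MIRb, 135 MIR, 98 MIR3 and 70 MIRc. Within L2, 141 were named L2, 116 L2a, 77 L2b and 52 L2c. CR1 was mostly L3, with 65 peaks, followed by L3b with 12 and CR1_Mam with 4. The other 8 CR1 peaks were 2 on Plat_L3 and 1 on each of 6 names of the X-LINE type. The number of copies of each family in the genome was not used here, so these counts do not say which family was open more often than its copy number would give.

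**Figure D1:**
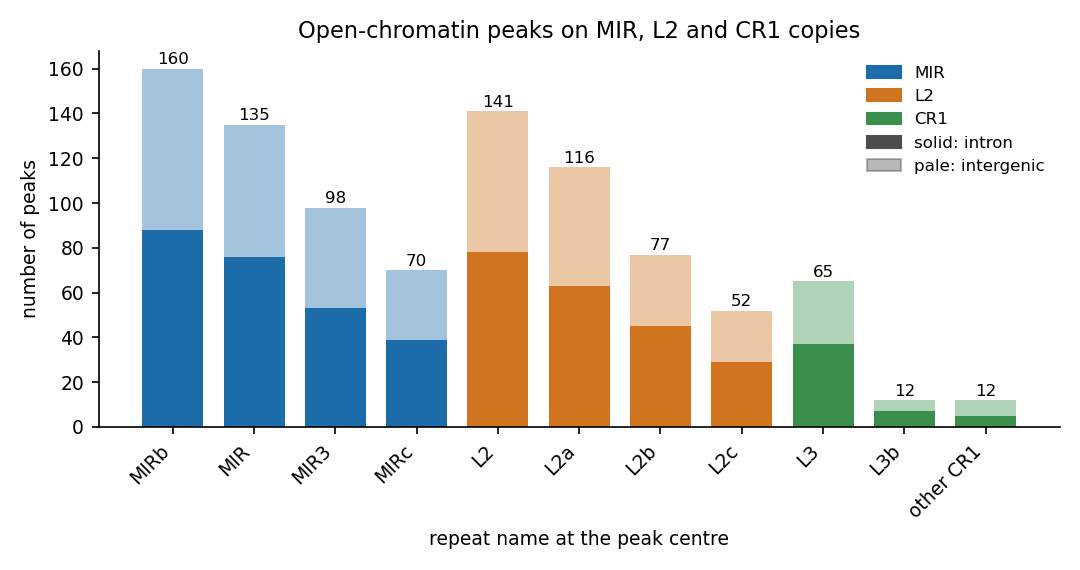
Number of peaks (vertical axis) on each repeat name (horizontal axis), coloured by family, with the intron part solid and the intergenic part pale. MIRb is the most frequent name with 160 peaks, and L3 holds 65 of the 89 CR1 peaks.

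The split between introns and intergenic sequence did not separate the families from each other. Of the 938 peaks, 520 (55.4%) were annotated to an intron and 418 (44.6%) as intergenic. The intron share was 55.3% for MIR (95% Wilson interval 50.7 to 59.8), 55.7% for L2 (50.7 to 60.6) and 55.1% for CR1 (44.7 to 65.0). Intron and intergenic peaks outside repeats, 53889 in number and called peaks outside repeats from here on, had an intron share of 53.9%. The difference from them was 1.35 percentage points for MIR (95% Newcombe interval -3.23 to 5.83), 1.75 for L2 (-3.25 to 6.65) and 1.11 for CR1 (-9.23 to 11.03), so none was larger than counting error. L1 peaks, on the LINE family that is still active in mice, had a lower intron share of 45.7%, and MIR exceeded it by 9.58 points (4.53 to 14.5). The L1 set pools all L1 names and was not sorted by age. All 12746 peaks on a named repeat were intron or intergenic, since the annotation gives promoter and exon classes before it names a repeat; the absence of members from promoters is thus a product of the annotation. These intervals cover counting error only, and peaks on copies of 1 family share sequence and are not independent replicates.

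CR1 peaks lay farther from the transcription start site (TSS) than peaks outside repeats. The median distance was 23301 bp for MIR (quartiles 8340 and 51741 bp) and 24748 bp for L2 (8790 and 60726 bp), beside 23692 bp for peaks outside repeats. For CR1 it was 32663 bp (13511 and 102313 bp). Over 100 kb from a TSS lay 25.8% of CR1 peaks, 12.2 points more than the 13.7% of peaks outside repeats (interval of the difference 4.21 to 22.2). For MIR and L2 the shares over 100 kb were 12.3% and 14.5%, and their differences of -1.35 (-4.05 to 1.97) and 0.85 (-2.33 to 4.72) points were within counting error. Within 10 kb of a TSS lay 27.6% of MIR peaks, 27.7% of L2 peaks and 17.98% of CR1 peaks, against 27.8% outside repeats. The CR1 difference from peaks outside repeats was -9.82 points (-16.4 to -0.56). L1 peaks were shifted the same way, with a median of 28446 bp and 20.5% within 10 kb, and CR1 differed from them there by -2.50 points (-9.34 to 6.90), within counting error, but exceeded them over 100 kb by 8.59 points (0.45 to 18.7).

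Within 10 kb of a TSS the shares of MIR and L2 lay between those of B2 and L1. Of 1781 peaks on B2 SINEs, a young rodent family, 34.1% lay within 10 kb of a TSS, and the difference was -6.49 points for MIR (-10.97 to -1.73) and -6.42 for L2 (-11.2 to -1.27), both below B2. They exceeded L1 by 7.17 points (2.89 to 11.7) and 7.24 (2.64 to 12.2). Within 5 kb MIR and B2 differed by -0.43 points (-3.86 to 3.45), within counting error. The median B2 distance was 16006 bp. Close to the TSS peaks of all these repeat families were rare. Within 1 kb were 7 MIR peaks (1.51%), 3 L2 peaks (0.777%), 0.337% of B2 peaks and 0.248% of L1 peaks, against 3.38% outside repeats, and MIR exceeded B2 by 1.17 points (0.30 to 2.76) and L1 by 1.26 (0.42 to 2.85). For CR1 it was 0 of 89 peaks, for which 3 counts would be a share of 3.37% and the Wilson upper end is 4.14%, so that a difference from peaks outside repeats was not detectable (-3.53 to 0.76). Upstream of the assigned TSS lay 40.8% of MIR, 41.7% of L2 and 36.0% of CR1 peaks, beside 40.8% outside repeats.

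**Figure D2:**
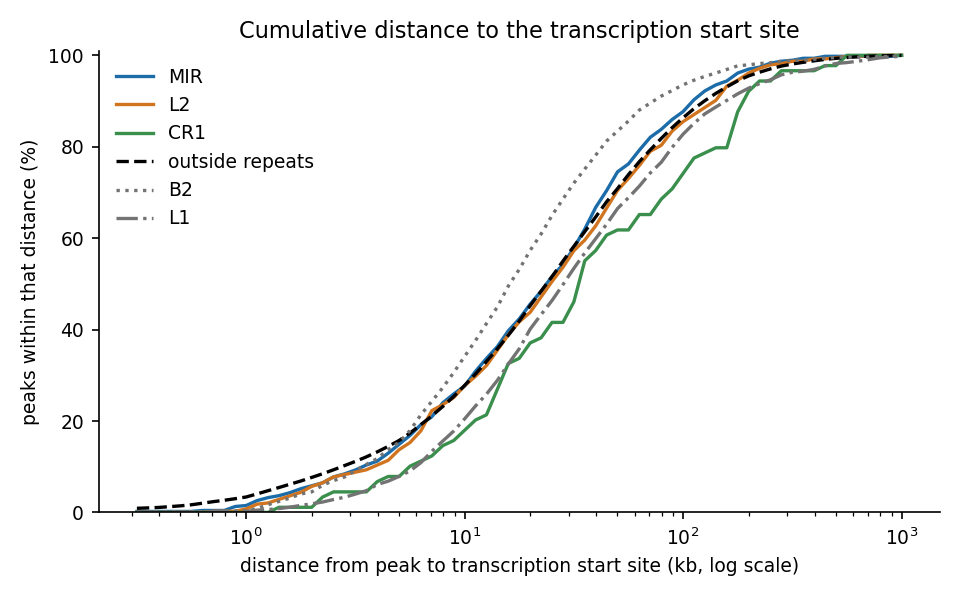
Share of peaks (vertical axis, %) within a given distance of the nearest annotated transcription start site (horizontal axis, kb, log scale) for MIR, L2, CR1, peaks outside repeats, B2 and L1. The MIR and L2 curves follow the peaks outside repeats, the CR1 curve lies to the right, with 17.98% within 10 kb, and the B2 curve to the left, with 34.1%.

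The nearest members to a TSS were few. 1 MIRb peak lay in intron 1 of Il12a, which encodes the p35 chain of interleukin-12, at 296 bp (chr3:68691471-68691969). It was followed by a MIR peak at 598 bp in Tpcn2, an endolysosomal cation channel, and a MIRb peak at 811 bp in Lrsam1, an E3 ubiquitin ligase. The nearest L2 member was an L2a peak at 632 bp in intron 1 of Mapre1, the microtubule plus-end protein EB1 (chr2:153741670-153742168). An L2b peak in Wiz, a zinc finger partner of histone methyltransferases, lay at 967 bp. For CR1 the nearest was an L3 peak at -1355 bp from 6430548M08Rik, where a negative distance means upstream, and the next were L3 peaks at 2003 bp in Ccdc92 and at -2117 bp from Parp11. By the annotated distance the Il12a peak was the only member within 500 bp. By curated RefSeq start sites the nearest L2 member was at 186 bp, from B230206L02Rik.

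MIR peaks had another peak close by more often than peaks outside repeats. Another peak of the list lay within 10 kb of 82.5% of MIR peaks (interval 78.8 to 85.7), 78.0% of L2 peaks (73.6 to 81.8) and 69.7% of CR1 peaks (59.5 to 78.2). Outside repeats this share was 73.9%, so MIR was higher by 8.58 points (4.84 to 11.8), while the L2 difference of 4.05 points (-0.36 to 7.92) and the CR1 difference of -4.26 points (-14.5 to 4.32) were within counting error. B2 and L1 peaks had a neighbour within 10 kb in 71.4% and 66.0% of cases, below MIR by 11.1 points (6.83 to 14.9) and 16.5 points (12.3 to 20.3). The median gap to the nearest other peak was 3594 bp for MIR, 3894 bp for L2, 4921 bp for CR1 and 4543 bp outside repeats. Within 1 kb the MIR share was 12.3% and that outside repeats 12.2% (difference 0.11, -2.59 to 3.43).

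By chromosome the members made up between 0.635% of the peaks (17 of 2679 on chromosome 18) and 1.53% (102 of 6674 on chromosome 2) of the 19 autosomes and X. The interval of chromosome 2 (1.26 to 1.85%) lay above the 1.11% of the whole list, and those of chromosomes 13, 17 and 18, whose upper ends were 1.05, 1.04 and 1.01%, lay below it.

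Base composition of MIR and L2 peaks was close to that of peaks outside repeats, and median GC was lower in CR1. Median GC was 47.9% for MIR, 47.5% for L2 and 46.3% for CR1 (interval 44.3 to 46.9), beside 48.1% outside repeats, 43.5% for B2 and 44.1% for L1. The median number of CpG dinucleotides per peak was 6 for MIR and L2, 5 for CR1, 6 outside repeats and 4 for both B2 and L1. The lower-case masking of the RefSeq genome covered the centre of 4.75% of MIR peaks, 4.40% of L2 peaks and 3.37% of CR1 peaks, against 63.7% of B2 peaks, 23.2% of L1 peaks and 5.81% outside repeats. Where it did cover the centre, the masked run had a median of 24 bp for MIR and 23 bp for L2. This masking thus did not outline the old copies, and the ends of each copy were not known here, so a string found in a peak cannot be placed inside or outside the repeat.

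Next, 11 short strings for blood transcription factors were searched on both strands of each 499 bp peak. The string searched for GATA factors was AGATAA. For ETS factors it was AGGAAA, or AGGAAG in its place, and for the ETS factor PU.1 the longer GAGGAAGT. RUNX was searched as AACCACA, and C/EBP as TTGCNNAA, where N is any base. The basic leucine zipper factors NF-E2 and AP-1 shared TGANTCA. Of the E-boxes, the type bound by TAL1 was read as CAGATG, that of E2A and HEB as CAGCTG, and that of ZEB and SNAI as CAGGTG. TCF was searched with the letters CTTTGAT, and CTCF by its consensus. The PU.1 string always holds an ETS string. A match is a description of letters and not evidence of binding. For each family the share of peaks with a string was set against peaks outside repeats, 33 comparisons in all whose intervals were not widened for their number.

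MIR peaks held 6 of the 11 strings more often than peaks outside repeats and 1 less often. The TAL1-type E-box was in 210 MIR peaks (45.4%, background 36.7%, difference 8.70 points, 4.20 to 13.3). The C/EBP string was in 137 (29.6%, background 21.2%, difference 8.44, 4.45 to 12.8). The NF-E2/AP-1 string was in 103 (22.2%, background 17%, difference 5.20, 1.63 to 9.22). TAL1 works in stem and erythroid cells, C/EBP factors in granulocytes and macrophages, and NF-E2 in megakaryocytes and erythroid cells. The GATA string was in 144 MIR peaks (31.1%, background 26.7%, difference 4.35, 0.29 to 8.73). PU.1 was in 61 (13.2%, background 9.51%, difference 3.66, 0.87 to 7.06) and ETS in 406 (87.7%, background 84.1%, difference 3.63, 0.31 to 6.33). The string for CTCF, the insulator and loop-anchor protein, was in only 10 MIR peaks (2.16%, background 9.42%, difference -7.26, -8.27 to -5.47). L1 peaks were also low, at 4.16%, and MIR was below them by a difference of -2.00 (-3.38 to -0.07). The high share of the TAL1-type E-box was not distinct from B2 peaks, which held it in 40.7% of cases. The MIR difference from B2 was 4.71 points (-0.33 to 9.79), and 1.42 (-2.98 to 6.11) in the central 200 bases, both within counting error. From L1 peaks, at 34.0%, MIR differed by 11.3 points in the whole peak, beyond counting error.

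L2 peaks held 3 of the 11 strings more often than peaks outside repeats and 2 less often. The GATA string was in 132 L2 peaks (34.2%, difference 7.45 points, 2.88 to 12.3), ETS in 356 (92.2%, 8.17, 5.05 to 10.5) and PU.1 in 52 (13.5%, 3.96, 0.90 to 7.74). The E2A/HEB E-box, bound by E proteins of lymphoid cells, was in 92 (23.8%, background 31%, difference -7.21, -11.2 to -2.69). CTCF was in 15 (3.89%, difference -5.53, -7.07 to -3.10). Neither low share was particular to L2 among repeats: the difference from L1 was -0.76 (-5.18 to 4.097) for the E2A/HEB E-box and -0.28 (-2.08 to 2.27) for CTCF, and L2 exceeded B2 for the E2A/HEB E-box by 4.69 (0.28 to 9.52). For C/EBP (1.13, -2.75 to 5.56), NF-E2/AP-1 (1.08, -2.45 to 5.25) and the TAL1-type E-box (0.39, -4.30 to 5.33) the L2 difference from peaks outside repeats was within counting error. Contrasts between families were added after the data were seen and come on top of the 33 comparisons, with intervals likewise not widened. MIR exceeded L2 by 8.31 points for the TAL1-type E-box (1.65 to 14.8), 7.31 for C/EBP (1.37 to 13.1) and 7.70 for the E2A/HEB E-box (1.64 to 13.6). It was below L2 for ETS (-4.54, -8.55 to -0.43) and TCF (-3.71, -7.46 to -0.18). For the other strings the interval of MIR minus L2 held 0.

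With 89 peaks CR1 gave wide intervals, and 1 string of the 11 passed. PU.1 was in 17 CR1 peaks (19.1%, difference 9.59 points, 2.77 to 18.97). The intervals of the other 10 strings crossed 0, which does not show that CR1 and the rest were alike: for NF-E2/AP-1 the share was 23.6% (difference 6.55, -1.07 to 16.4) and for CTCF 5.62% (difference -3.80, -7.01 to 3.07). For RUNX (background 17.5%), ZEB/SNAI (background 33.1%) and TCF (background 7.41%) no family differed from peaks outside repeats beyond counting error. The RUNX string was in 16.8% of MIR, 20.2% of L2 and 16.9% of CR1 peaks.

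**Figure D3:**
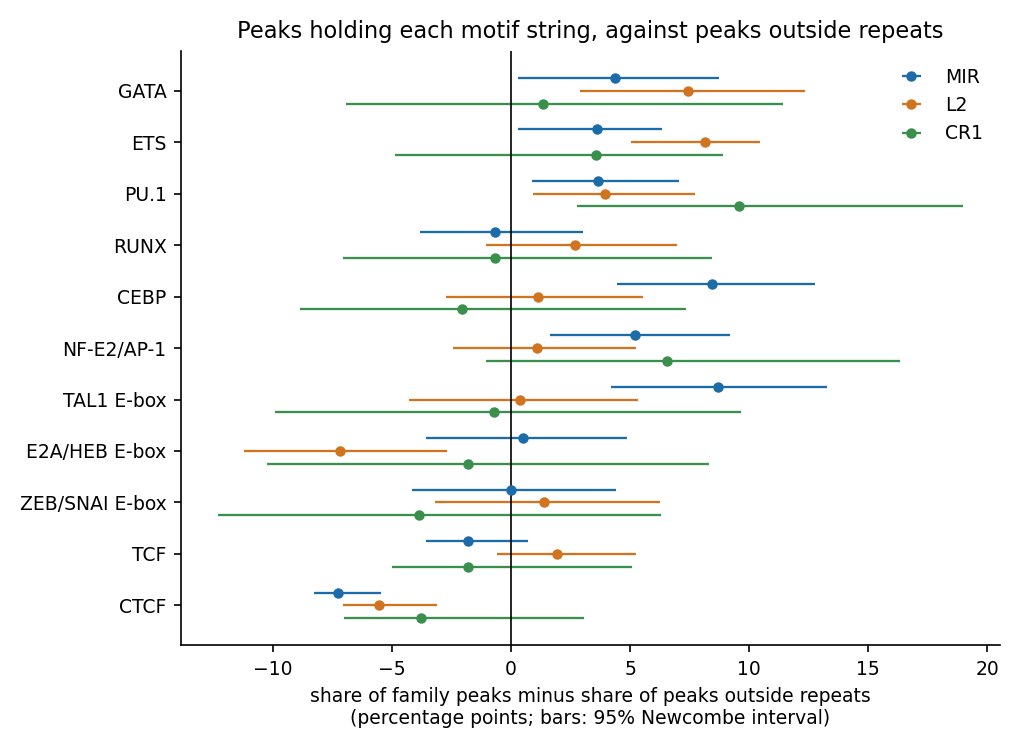
Difference in the share of peaks holding each motif string (horizontal axis, percentage points) between each family and peaks outside repeats, with 95% Newcombe intervals, for the 11 strings (vertical axis). The MIR intervals for C/EBP (4.45 to 12.8) and the TAL1-type E-box (4.20 to 13.3) lie right of 0, as do all PU.1 intervals, and the CTCF intervals of MIR and L2 lie left of 0.

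Set against other repeat families, the ETS contrast was larger for B2 than for peaks outside repeats, and not for L1. B2 peaks held the ETS string in 62.5% of cases, 25.2 points below MIR (21.2 to 28.7) and 29.7 below L2 (25.9 to 32.9). Their PU.1 share was 4.38%, below MIR by 8.80 points (5.82 to 12.3). L1 peaks were nearer: they held ETS in 84.5%, and MIR exceeded them by 3.16 points (-0.48 to 6.31), within counting error, and L2 by 7.70 (4.24 to 10.5). GATA was in 30.8% of L1 peaks. In the whole peak MIR (0.26, -4.27 to 5.05) and L2 (3.36, -1.64 to 8.61) did not differ from them beyond counting error. The same held for PU.1, with differences from L1 of 2.57 (-0.56 to 6.18) for MIR and 2.86 (-0.50 to 6.84) for L2. L1 peaks held the RUNX string more often, at 24.8%, and the MIR share was below theirs (difference -7.99 points, -11.7 to -3.88). At least 4 of the 11 strings occurred in 40.6% of MIR peaks (36.2 to 45.1), 34.7% of L2 (30.1 to 39.6) and 31.5% of CR1 (22.7 to 41.7), beside 32.0% outside repeats and 22.4% in B2. ETS and GATA strings together were in 27.6% of MIR, 31.6% of L2 and 27.0% of CR1 peaks, and in 22.7% outside repeats. L1 peaks held both in 26.1% (24.3 to 28.1) and B2 peaks in 17.4%.

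In the central 200 bases the ETS difference was wider in every family. ETS was there in 71.7% of MIR (difference from outside repeats 10.6 points, 6.33 to 14.6), 73.8% of L2 (12.7, 8.12 to 16.9) and 74.2% of CR1 peaks (13.1, 3.10 to 21.0). C/EBP in MIR was 18.8% (9.03, 5.72 to 12.8) and GATA in L2 21.2% (8.52, 4.72 to 12.9). The nearest ETS string lay at a median of 37.5 bp from the centre in MIR, 38 bp in L2 and 38.5 bp in CR1 peaks that held one, and 48.5 bp outside repeats. The nearest C/EBP string was at a median of 62.5 bp in MIR, 98 bp in L2, 64.5 bp in CR1 and 105.5 bp outside repeats. For the TAL1-type E-box the medians were 74.5, 85.5, 48.5 and 97.5 bp. CTCF strings were at 17 bp in MIR, 9 bp in L2, 38 bp in CR1 and 19 bp outside repeats, and in CR1 RUNX strings were nearer, at 31 bp. These medians were not tested.

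**Figure D4:**
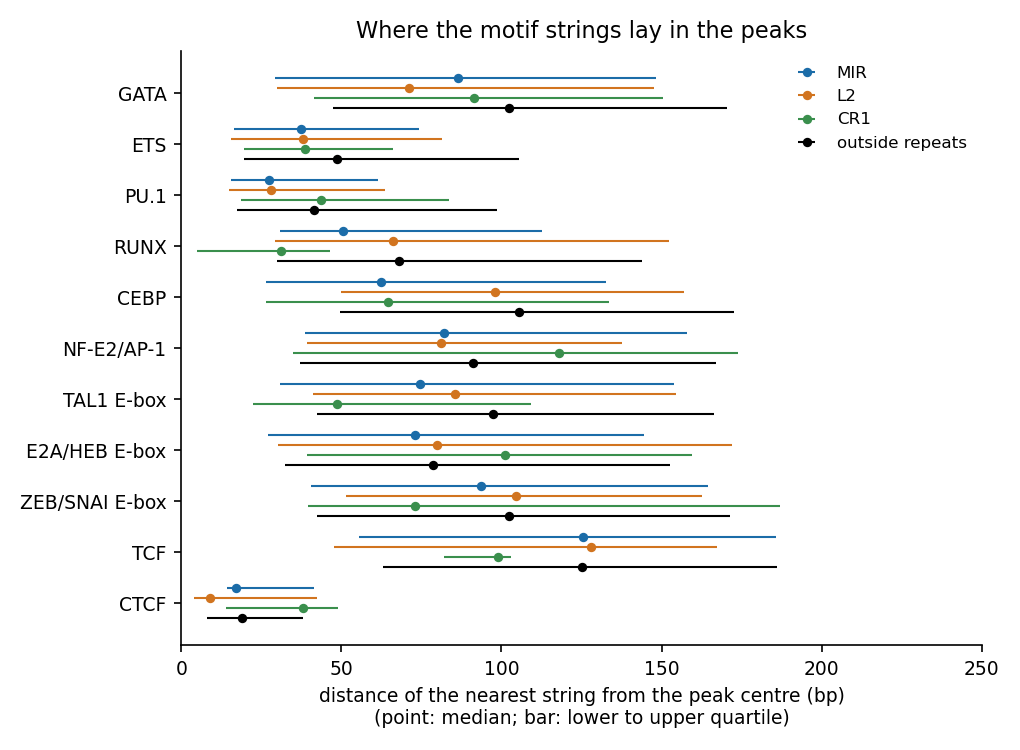
Distance of the nearest matching string from the peak centre (horizontal axis, bp) among peaks that hold it, as median and quartiles, for 11 strings (vertical axis) and the 3 families beside peaks outside repeats. ETS strings lie at medians of 37.5 to 38.5 bp in the families and 48.5 bp outside repeats, and CTCF strings at 9 bp in L2.

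Point shares ranged widely between the names within a family. GATA was in 38.8% of MIRb peaks (interval 31.5 to 46.5) and 20.4% of MIR3 peaks (13.6 to 29.4), and C/EBP in 35.6% of MIRb (28.6 to 43.3) and 18.4% of MIR3 (11.9 to 27.2). For PU.1 the order was the other way, with 20.4% of MIR3 (13.6 to 29.4), 13.1% of MIRb (8.75 to 19.2) and 5.71% of MIRc (2.24 to 13.8). GATA in L2b was 39.0% (28.8 to 50.1) and in L2c 26.9% (16.8 to 40.3), which overlap. Neighbours in each order overlapped, and the differences between names were not tested.

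In L2 the CTCF matches were mostly on 1 name. Of the 15 L2 peaks with a CTCF match 10 were on L2b, which is 13.0% of the 77 L2b peaks (7.21 to 22.3). L2 had 2 (1.42%), L2c 3 (5.77%) and L2a 0 of 116 (3 counts would be 2.59%, Wilson upper end 3.21%). MIR3 had 0 of 98 (3 counts would be 3.06%, Wilson upper end 3.77%). The L2b interval holds the 9.42% of peaks outside repeats and overlaps that of CR1. The L2b matches are shown because most L2 matches were on this name, the 5 nearest to their peak centres, each with 20 bases on either side, read on the strand of the match, with the match in capitals.
Cox4i2, L2b: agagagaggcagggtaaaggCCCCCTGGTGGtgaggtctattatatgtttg
1700001D01Rik, L2b: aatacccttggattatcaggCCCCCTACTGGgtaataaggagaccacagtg
Rnf220, L2b: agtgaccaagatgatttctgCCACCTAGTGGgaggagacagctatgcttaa
Wiz, L2b: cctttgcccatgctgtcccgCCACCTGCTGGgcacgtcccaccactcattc
Elf5, L2b: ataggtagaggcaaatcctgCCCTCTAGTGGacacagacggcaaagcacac
They lie at chr2:152767800-152767850 (Cox4i2, intron), chr8:61374564-61374614 (1700001D01Rik, intron), chr4:117346209-117346259 (Rnf220, intron), chr17:32386812-32386862 (Wiz, intron) and chr2:103445944-103445994 (Elf5, intron). Their centres were 2, 8, 9, 13 and 22 bp from the peak centres. The flanks differed from copy to copy. This subset was chosen after its values were seen.

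**Figure D5:**
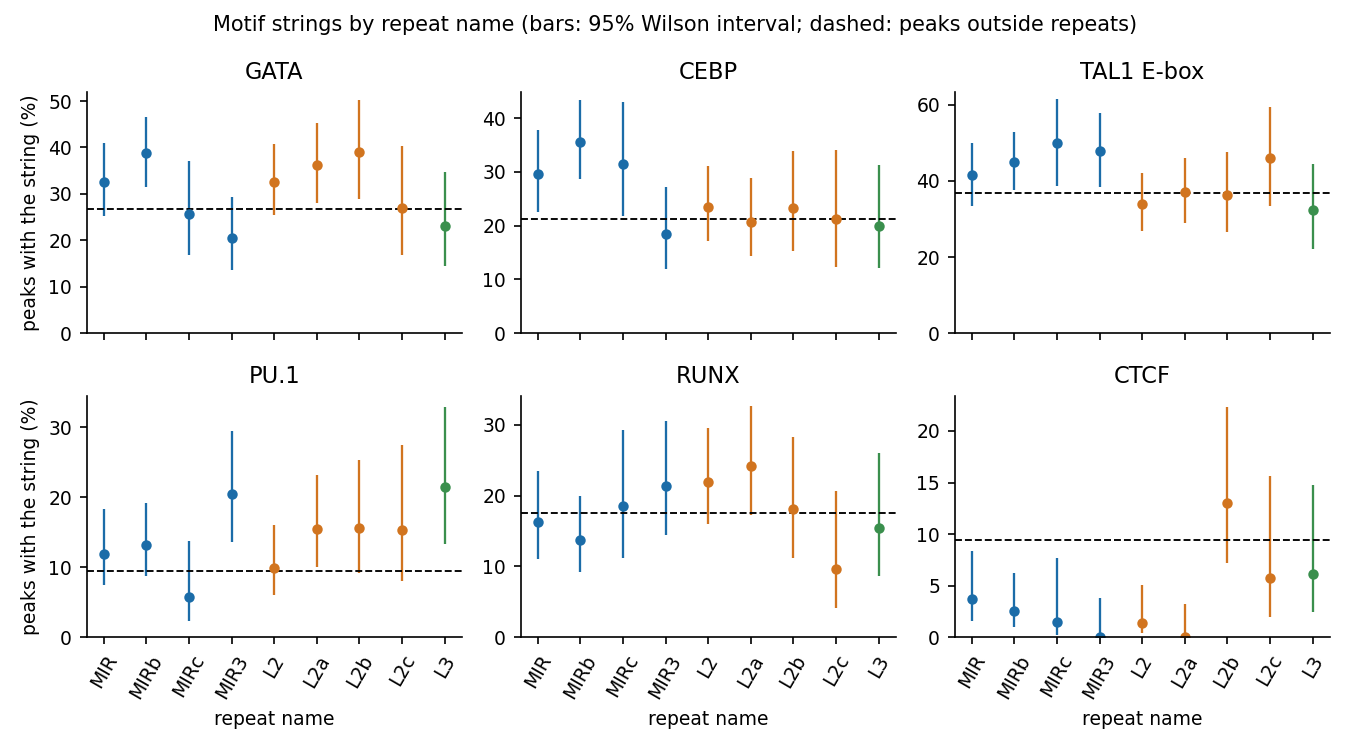
Share of peaks with a motif string (vertical axis, %) for each repeat name with 50 or more peaks (horizontal axis), with 95% Wilson intervals and the share outside repeats as a dashed line, for GATA, C/EBP, TAL1-type E-box, PU.1, RUNX and CTCF. L2b stands at 13.0% for CTCF while L2a and MIR3 are at 0, and MIRb is above the dashed line for GATA and C/EBP.

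Strings shared by the copies were then sought without naming a factor. Every string of 10 bases was ranked by how much larger its share of peaks was in a family than outside repeats, so the leading strings are high by the way they were chosen and are given as a description. In MIR the first was AGATGAGGAA, in 24 peaks (5.18%) and 0.551% outside repeats. It was on 11 MIRb, 5 MIRc, 4 MIR and 4 MIR3 peaks. The next were AGGAAGCTGA in 23 peaks (4.97%, outside repeats 0.870%) and, overlapping it on the other strand, CAGCTTCCTC in 22 (4.75%, 1.06%). Each holds GGAA, the core of an ETS site, on 1 strand. Of strings of 8 bases ATGAGGAA led with 76 MIR peaks (16.4%), and CAAGGTCA, in 45 (9.72%), and CTGTGTGA, in 56 (12.1%), were among the first 8. ATGAGGAA and CAAGGTCA occurred in the same peak 6 times, at no spacing that recurred. A spacing that recurred belonged to strings that overlap: ATGAGGAA and AGCTTCCT, on the same or opposite strands, were both in 16 MIR peaks. In 9 of them they started 3 bases apart on opposite strands, forming 1 run. The same was seen in 88 of the 233 peaks outside repeats that held both.

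The 6 MIR copies of AGATGAGGAA nearest to their peak centres are printed with 30 bases on either side, on the strand that reads GGAA, with the string in capitals.
Lrrc8d, MIRc: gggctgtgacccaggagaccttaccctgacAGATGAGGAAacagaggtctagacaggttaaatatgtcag
Myo1c, MIRc: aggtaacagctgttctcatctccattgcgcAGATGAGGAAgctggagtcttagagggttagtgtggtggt
Srsf4, MIRc: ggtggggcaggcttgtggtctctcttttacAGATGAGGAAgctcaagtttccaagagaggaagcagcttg
Incenp, MIRc: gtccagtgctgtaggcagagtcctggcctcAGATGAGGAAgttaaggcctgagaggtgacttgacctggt
Fam213a, MIRb: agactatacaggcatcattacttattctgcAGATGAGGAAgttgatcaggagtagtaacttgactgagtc
3930402G23Rik, MIR: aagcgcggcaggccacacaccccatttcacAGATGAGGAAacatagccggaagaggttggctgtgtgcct
They lie at chr5:105684213-105684282, chr11:75644888-75644957, chr4:131861145-131861214, chr19:9931530-9931599, chr14:41021978-41022047 and chr8:10953829-10953898, 3.5 to 15.5 bp from the centres. In all 24 copies the most frequent base at each place gave the run below, in which capitals are bases present in at least 60% of copies.
MIR majority: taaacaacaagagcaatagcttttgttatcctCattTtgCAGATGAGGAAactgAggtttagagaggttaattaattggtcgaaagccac
Of its 90 places 14 reached 60%, 10 of them being the string itself. The base just before the string was C in 62.5% of copies, which completes CAGATG, the TAL1-type E-box, and CAGATGAGGA was in 17 MIR peaks (3.67%). In that run the E-box ends where the letters AGGAA begin, so the E-box and ETS-type letters lie side by side and share none.

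L2 and CR1 led with strings that hold a PU.1-like run. In L2 TGAGGAAGTG was in 16 peaks (4.15%, outside repeats 0.935%), 7 of them L2a. In CR1 AGAGGAAGTG was in 8 peaks (8.99%, outside repeats 2.00%), 6 of them L3. The 4 copies of each that are nearest to the peak centre follow, printed in the same way.
Ube2v1, L2a: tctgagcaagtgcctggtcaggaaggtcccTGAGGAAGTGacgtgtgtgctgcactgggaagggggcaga
Gm34184, L2a: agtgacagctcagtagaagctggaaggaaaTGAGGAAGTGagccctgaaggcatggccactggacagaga
Arhgap32, L2a: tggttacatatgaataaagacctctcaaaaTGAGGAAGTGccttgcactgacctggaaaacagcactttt
Zswim6, L2b: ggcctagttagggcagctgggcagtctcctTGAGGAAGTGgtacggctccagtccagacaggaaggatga
Ddx20, L3: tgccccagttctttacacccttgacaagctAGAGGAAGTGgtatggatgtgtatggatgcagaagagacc
1700071K01Rik, L3: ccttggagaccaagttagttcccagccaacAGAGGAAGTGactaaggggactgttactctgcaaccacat
Gm15412, L3: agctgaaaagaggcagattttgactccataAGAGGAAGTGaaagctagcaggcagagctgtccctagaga
Cd6, L3: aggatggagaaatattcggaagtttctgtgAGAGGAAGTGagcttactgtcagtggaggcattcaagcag
The L2 copies lie at chr2:167589463-167589532, chr10:84199217-84199286, chr9:32138791-32138860 and chr13:107944987-107945056, and the CR1 copies at chr3:105653645-105653714, chr11:81411471-81411540, chr7:96539380-96539449 and chr19:10790461-10790530. Of 90 places 11 reached 60% in L2 and 14 in CR1, 10 of them in each case being the string itself. Outside the string the most frequent CR1 base was an A just after it, in 87.5% of the 8 copies.

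The leading strings are common in the genome, and few of their copies were open. AGATGAGGAA occurs 19459 times in the assembled chromosomes, and 439 copies (2.26%, 2.06 to 2.47) lay in a master peak, of any kind. For TGAGGAAGTG it was 737 of 12157 (6.06%, 5.65 to 6.50) and for AGAGGAAGTG 1599 of 18129 (8.82%, 8.42 to 9.24). The master peaks cover 1.59% of the assembled bases. The strings were chosen on member peaks, so their shares in peaks are in part set by that choice and are a description.

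The members were spread over many genes. The nearest genes of the 938 peaks were 867 different genes, of which 801 had 1 member, 61 had 2 and 5 had 3. Of the peaks 806 (85.9%) had a protein-coding nearest gene and 124 (13.2%) a non-coding RNA gene, and the protein-coding share over the whole list was 85.6%. The 5 genes with 3 members were Chst15, Hdac9, Plpp3, Oxr1 and Epb41l1. Chst15, a chondroitin sulfotransferase, had 3 L2 peaks, all intergenic and upstream, at -18244, -68126 and -121059 bp, out of 20 peaks assigned to it. Hdac9, a class IIa histone deacetylase, had 3 L2 peaks in its introns 3, 13 and 14, at 150064 to 195581 bp from the assigned TSS, out of 29. Plpp3, a lipid phosphate phosphatase, had 1 MIR and 2 L2 peaks of 22. Oxr1, an oxidation resistance gene, had 1 MIR and 2 L3 peaks, all intronic, of 20, and Epb41l1, a membrane skeleton protein, 2 MIR and 1 CR1 of 12.

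In each family, genes with 2 peaks followed. For MIR they were 17 genes, the first by name being 9430078K24Rik, Atxn7l1, B930092H01Rik, Bmper and Celf2. Celf2, an RNA-binding splicing regulator, had MIR3 peaks at -40959 and -400426 bp, out of 35. Bmper, a secreted regulator of BMP signalling, had a MIR3 peak at -107338 and a MIRb peak at -17146 bp. For L2 the 9 genes with 2 peaks included Chd7, a chromatin remodeller, with L2 peaks at 23821 and 164444 bp, Dmxl2, a regulator of the vacuolar proton pump, with L2a and L2c peaks in introns 6 and 3 that made up 2 of its 4 peaks, and Dusp6, the ERK phosphatase, with peaks at -64124 and 167634 bp. For CR1 the genes were Bex6, N4bp2l1, Oxr1 and Vav3. Vav3, a signalling protein of lymphocytes, had L3 peaks at 107798 bp in intron 2 and at 173808 bp, of 32. The Bex6 pair, both intergenic on L3, lay at 9489 and 10524 bp.

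Among the 75 blood genes, 12 had a member as a nearest peak. They carried 14 members of 781 peaks (1.79%, interval 1.07 to 2.99), a share whose interval holds the 1.11% of the whole list, and the 14 were 9 MIR, 5 L2 and 0 CR1. By lineage they were 3 of 211 peaks at HSC genes, 1 of 74 at MkP genes, 0 of 103 at EP genes (3 counts would be 2.91%, Wilson upper end 3.60%), 3 of 87 at GM genes, 3 of 137 at B genes and 4 of 169 at T genes. These lineages are those of the genes and not of the cells in which a peak was open.

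At HSC genes the members were near Lmo2 (MIRb, -10919 bp), Erg (MIRc, intron 2, 37760 bp), an ETS factor of stem cells, and Kit (L2c, 187068 bp), the stem cell factor receptor. At the MkP gene Itgb3, the platelet integrin subunit, a MIR3 peak lay in intron 2 at 22430 bp. At GM genes they were near Csf3r (MIR, -5539 bp), Itgam (L2, -13651 bp) and Irf8 (L2b, 24812 bp). Irf8 is listed with the GM genes here, but the authors report its expression only in B cells among the cell types studied. The Lmo2, Itgb3 and Csf3r peaks had another peak of the list within 1158, 1060 and 1276 bp.

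Genes listed as B or T carried 7 of the 14. Ikzf1 had a MIR3 peak at -18196 bp and a MIRc peak in intron 3 at 45275 bp, out of 20 peaks, and Bcl6 an L2 peak at -36826 bp. By curated RefSeq start sites the B genes carried 2 members of 126 peaks, 1 MIR and 1 L2. Over all members the nearest gene was the same by both annotations for 92.4%. Runx3, a factor of CD8 T cells, had a MIR3 peak in intron 1 at 21287 bp and an L2 peak in intron 3 at 39714 bp, out of 23. Satb1, a chromatin organizer of thymocytes, had a MIR3 peak in intron 8 at 59709 bp that held ETS, PU.1, RUNX, C/EBP and NF-E2/AP-1 strings. Ets1, a lymphoid ETS factor, had a MIR3 peak in intron 6 at 44103 bp, which was the 1 peak of the 14 with no ETS string. Of the 14, 13 held an ETS string, beside the 84.1% of peaks outside repeats that did.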

How the data were processed

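ATAC-seq libraries of 6 sorted cell types, 2 replicates each, were processed by the authors with the ENCODE pipeline on mm10, which kept no multimapping reads, and the reproducible peaks of each cell type were joined and filtered with chromVAR to peaks that do not overlap. HOMER 4.10.2, named in the submitters' processing notes, annotated each peak. The deposited Peak Score, a score column, is 0 in every row and the deposited distance to TSS is in bp; depth is unknown. Members and gene lists were chosen with earlier results of these data known. Named genes were the 5 with most members per family, up to 3 per blood lineage, the members nearest a TSS and those whose sequence is shown; genes with 3 members and the L2b CTCF matches were named after their values were seen. Sequences came from RefSeq GRCm38.p6 (release 108), which has the coordinates of mm10. The annotated distance was within 2 bp of the curated RefSeq distance for 85.2% of members. Shares carry 95% Wilson and differences 95% Newcombe intervals, computed in Python 3.11.15 with pandas 2.3.3 and scipy 1.17.1, and no p-value was computed. Contrasts between families and the spacing of strings were added after the data were seen. The string search was tested on simulated sequence. Alternatives changed the TSS set, distance limits, window, comparison peaks, string length and the annotation of genes.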

Additional observations from a re-analysis of the deposited data

How the results depend on the processing

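No paired analysis was possible because the list is pooled over all samples and holds no value per sample. For the same reason no replicate could be left out. Counts of members, intron shares, median distances, numbers of nearest genes and the share at blood genes stayed within the interval or 1.5 times of the reported value when only autosomes, only peaks over 500 bp from a TSS or curated RefSeq transcripts were used. Shares tied to a limit moved with it. Within 5 kb of a TSS lay 14.9% of MIR, 13.7% of L2 and 7.87% of CR1 peaks, and within 25 kb 51.4%, 50.5% and 41.6%. Another peak lay within 5 kb of 61.3%, 58.8% and 51.7%, and within 25 kb of 95.2%, 90.9% and 88.8%. In the central 200 bases median GC was 49% for MIR and L2 and 47% for CR1, and 2 strings were higher in CR1 than outside repeats in place of 1. The numbers of strings higher and lower than outside repeats were 6 and 1 in MIR and 3 and 2 in L2 there too, and against all non-promoter peaks. The leading string of 8 bases was in 16.4%, 14.8% and 22.5% of MIR, L2 and CR1 peaks and that of 12 bases in 2.38%, 1.81% and 4.49%. Shorter strings recur more often by their construction. The pooled list, and not the depth of a library, limits what these peaks can show about a cell type.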
